A study of Mus musculus with 8 samples.

Results

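Matrix metalloproteinases (MMPs), the ADAM and ADAMTS proteases and the tissue inhibitors of metalloproteinases (TIMPs) were examined in the inguinal white adipose tissue (ING WAT) of mice. Every gene whose symbol began with *Mmp*, *Timp*, *Adamts* or *Adam* and a digit was taken, which gave 79 of the 38348 genes in the table: 23 *Mmp*, 4 *Timp*, 19 *Adamts* and 33 *Adam* genes. ING WAT is the subcutaneous fat pad of the groin. Poly(A)+ RNA of the pad was sequenced in 8 C57BL/6j mice, 4 at postnatal day 21 (PN21: m1, m49, m138, m145) and 4 at postnatal day 98 (PN98: m35, m106, m114, m125), with 1 library per mouse. PN21 is the age of weaning and PN98 is young adulthood. The labels give no genetic modification, no treatment, no sex and no diet. The study fed a standard or a western-style diet in the weeks before PN98, so age and diet cannot be told apart here. The Y-linked genes *Ddx3y*, *Kdm5d*, *Uty* and *Eif2s3y* summed to between 71.8 and 118 FPKM in the 8 mice. *Xist* was low in all mice, between 0.247 and 0.832 FPKM at PN21 and at most 0.00704 FPKM at PN98, without overlap.

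MMPs are zinc-dependent enzymes that are made as inactive precursors and cut collagens, elastin, laminins and other proteins outside the cell. ADAMs are mostly anchored in the membrane and release the outer parts of other membrane proteins, a step called shedding. ADAMTS enzymes are secreted, and some of them trim procollagens or cut large proteoglycans such as versican and aggrecan. TIMPs bind the active site of MMPs and block it, and TIMP3 also inhibits several ADAM and ADAMTS enzymes. In fat, where each adipocyte sits in a shell of collagen, such remodelling goes with the growth of the pad.

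Expression was in FPKM, fragments scaled to transcript length and to library size, summed over the transcripts of a gene, so that levels of different genes are compared per length. The 79 genes had 252 transcripts. A gene entered the test when its mean over the 8 mice was at least 1 FPKM, and 37 of the 79 genes did. Of the 42 genes below this level, 11 were listed at 0 in all 8 mice and the highest single value was 2.22 FPKM. *Adam1a* lay just above the minimum with a mean of 1.04 FPKM, and *Adamts17* lay just below it with 0.870 FPKM. Fold changes are differences on the log2(FPKM + 1) scale, PN98 minus PN21, and this scale understates the change of genes near 1 FPKM. Tests were made with limma across all 16075 genes above the minimum, and the adjusted p is the Benjamini-Hochberg value over all of them. A gene is said to be called when its adjusted p was below 0.05.

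The mice differed in ways that bear on the values below. Among all genes tested, the median fold change was −0.21 as deposited, −0.02 after scaling by the median of ratios and 0.01 after scaling to nuclear genes, so a fold change is read against −0.21. The summed FPKM of 8 lymphocyte genes ran from 322 to 791 in PN21 mice and from 13.3 to 147 in m106, m114 and m125, whereas m35 had 744. By these genes m35 stood with the PN21 mice. The 5 brown-like adipocyte genes summed to between 3034 and 6455 FPKM at PN21. In m35, m106, m114 and m125 they summed to 370, 2411, 1014 and 4225 FPKM, so here m35 was the furthest from PN21. None of the 5 was called by limma, and 2 (*Ucp1* and *Cox7a1*) were lower at an unadjusted p below 0.05, where 19.0% of all genes were. *Elovl3* went the other way, with a mean of 2.93 FPKM at PN21 and 28.3 at PN98. *Cidea* had means of 483 and 507 FPKM. The part of the brown-like adipocyte genes in the values below was not tested. Leaving out m35 raised the number of called genes in the whole table from 838 to 3508. The 7 white adipocyte genes listed summed to between 2681 and 4579 FPKM at PN21 and between 7845 and 9345 at PN98, and 3 of the 7 were called higher. Of 8 skeletal muscle genes 6 were found, and they summed to between 5.81 and 318 FPKM at PN21 and between 268 and 1654 at PN98. At an unadjusted p below 0.05, 5 of these 6 were higher, where 8.18% of all genes were, and 1 was called higher. The part of the white adipocyte and muscle genes in the values below was not tested. The 7 genes of mammary and skin epithelium summed to between 2.33 and 44.3 FPKM at PN21 and between 0.290 and 1.36 at PN98, with 1 called lower, and the 5 mast cell genes summed to between 74.3 and 139 and between 20.9 and 68.3 FPKM, with none called by limma and 3 lower at an unadjusted p below 0.05. Both sums were lower at PN98 without overlap, and their part in the values below was not tested. A lower level of a gene in a whole pad can come from fewer cells of a type or from less RNA per cell, and these cannot be told apart.

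The bases upstream of the called genes are shown first, for the 4 of 5 that have an entry among RefSeq promoters, with *Mmp3* as the neighbour of *Mmp12*. Sequences are from RefSeq on GRCm38.p6, 5′ to 3′ on the strand of the gene, without bases that lie in an annotated exon. Capitals mark matches on either strand to the motif of AP-1, spelled TGANTCA. They also mark the TATA box, spelled TATAAA. They also mark the GC box, spelled GGGCGG. Matches were allowed to overlap.
Mmp12, downstream start, chr9:7347124-7347373, plus strand: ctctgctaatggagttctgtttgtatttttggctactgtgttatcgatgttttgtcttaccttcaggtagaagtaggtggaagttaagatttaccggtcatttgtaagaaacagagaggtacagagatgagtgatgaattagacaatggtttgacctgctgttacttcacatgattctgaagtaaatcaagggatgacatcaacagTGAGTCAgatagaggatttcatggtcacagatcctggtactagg
Mmp12, upstream start, chr9:7344147-7344380, plus strand: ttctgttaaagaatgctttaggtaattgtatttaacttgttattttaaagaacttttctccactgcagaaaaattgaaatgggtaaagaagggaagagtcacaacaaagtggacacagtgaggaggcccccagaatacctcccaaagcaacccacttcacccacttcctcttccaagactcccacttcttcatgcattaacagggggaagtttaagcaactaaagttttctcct
Mmp3, chr9:7445572-7445821, plus strand: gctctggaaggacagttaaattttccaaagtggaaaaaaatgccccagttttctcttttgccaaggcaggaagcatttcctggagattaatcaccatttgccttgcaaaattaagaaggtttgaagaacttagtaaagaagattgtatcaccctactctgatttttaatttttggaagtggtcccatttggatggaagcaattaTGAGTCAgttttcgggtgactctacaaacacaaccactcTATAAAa
Mmp11, chr10:75932503-75932752, minus strand: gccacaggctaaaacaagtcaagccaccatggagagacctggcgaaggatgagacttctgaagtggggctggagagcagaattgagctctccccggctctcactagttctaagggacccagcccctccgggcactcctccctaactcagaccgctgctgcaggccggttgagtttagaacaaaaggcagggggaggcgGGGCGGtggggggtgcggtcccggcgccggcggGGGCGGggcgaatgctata
Timp1, chrX:20869916-20870165, plus strand: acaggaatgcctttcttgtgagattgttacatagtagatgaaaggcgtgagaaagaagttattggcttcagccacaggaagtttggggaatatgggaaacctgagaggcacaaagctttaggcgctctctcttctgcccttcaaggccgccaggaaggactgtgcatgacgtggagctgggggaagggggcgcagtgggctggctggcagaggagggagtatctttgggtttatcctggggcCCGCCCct
Adamts14, chr10:61273439-61273669, minus strand: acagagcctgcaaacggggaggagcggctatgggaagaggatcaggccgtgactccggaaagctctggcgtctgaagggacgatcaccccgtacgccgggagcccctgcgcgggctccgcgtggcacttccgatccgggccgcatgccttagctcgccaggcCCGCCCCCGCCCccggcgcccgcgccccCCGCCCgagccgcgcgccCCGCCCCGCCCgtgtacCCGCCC

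The genes that were higher at PN98 did not share these letters. *Mmp12* held the AP-1 motif 44 bases upstream of its downstream start and no match at its upstream start, *Mmp11* held 2 GC boxes and no AP-1 motif, and *Adam3* had no entry. Of the genes that were lower, *Adamts14* held 6 GC box matches and *Timp1* held 1. Of the 79 genes 49 had an entry, with 54 promoters in all. The AP-1 motif was found in the 250 bases of 12 of these 54 promoters (22.2%), each of another gene, and in 6.75% of all 32851 promoters. Of the 12 genes, 8 were *Mmp* genes of 1 cluster on chromosome 9 that is described below. GC boxes stood in 20 of the 54 promoters and in 32.7% of all promoters. TATA boxes stood in 12 of the 54 promoters (22.2%) and in 12.4% of all promoters. These matches describe letters in a window, and nothing about binding follows from them.

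Across the 37 tested genes, 3 were called higher at PN98 (*Mmp12*, *Mmp11* and *Adam3*), 2 were called lower (*Timp1* and *Adamts14*) and 32 were not called. Of the 37 genes, 4 had a mean of at least 1 FPKM at 1 age only. *Mmp12*, *Adam3* and *Adamts14* were among these, so they passed the minimum only through the age at which they were high. With no minimum set, *Mmp12*, *Adam3* and *Adamts14* were still called. Of all genes tested, 5.21% were called, 2.33% higher and 2.89% lower. The median fold change of the 37 genes was −0.24 beside −0.21 for all genes, with 18 genes above the median of all genes and 19 below it. By this median these genes sat where the whole table sat. At an unadjusted p below 0.05, 6 were higher and 12 lower, where 27.2% of all genes passed, 8.18% higher and 19.0% lower. The values of both ages did not overlap for 3 genes in the higher and 7 in the lower direction, against 6.05% and 9.98% of all genes tested.

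The counts moved with 1 mouse and with the weights given to the mice. Without m35, 15 of the 37 genes were called where 22.0% of all genes were, 3 higher (4.23% of all) and 12 lower (17.7% of all). The 12 were *Timp1*, *Mmp14*, *Mmp15*, *Mmp23*, *Adamts7*, *Adamts10*, *Adamts14*, *Adamts15*, *Adam8*, *Adam11*, *Adam19* and *Adam33*. With array weights, 17 genes were called where 28.7% of all genes were, 4 higher (7.13% of all) and 13 lower (21.6% of all). These weights set m35 lowest at 0.348 and m106, also a PN98 mouse, highest at 3.53. After median of ratios scaling 4 were higher (4.78% of all) and 3 lower (2.83% of all), and after scaling to nuclear genes 3 were higher (3.43% of all) and 2 lower (1.61% of all). Over protein coding transcripts alone, 33 genes were tested and 7 called, where 8.64% of all genes were, 2 higher (3.92% of all) and 5 lower (4.72% of all). Of all called genes 44.6% were higher as deposited, 62.8% and 68.1% after both scalings, 24.8% with array weights and 19.2% without m35.

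**Figure D1:**
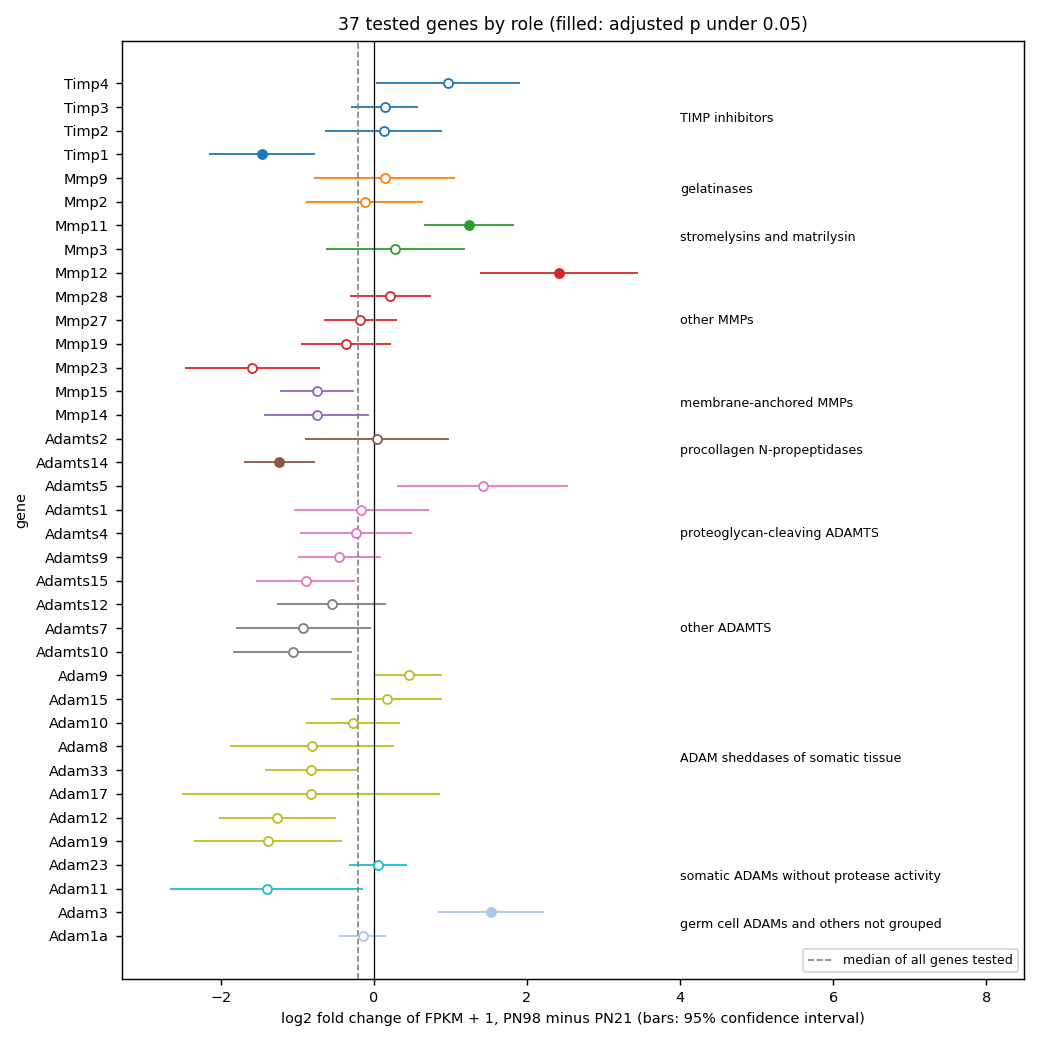
Log2 fold change of FPKM + 1 (x axis, PN98 minus PN21) of the 37 tested genes (y axis), grouped and coloured by role; bars are 95% confidence intervals, filled points have an adjusted p below 0.05 and the dashed line is the median of all genes tested, −0.21. The points lie on both sides of the dashed line, and the 5 filled points are Timp1, Mmp11, Mmp12, Adamts14 and Adam3.

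The inhibitors stood high by level. The 4 TIMPs held between 25.2% and 31.9% of the summed FPKM of all 79 genes at PN21 and between 31.8% and 35.9% at PN98. Over protein coding transcripts alone they held between 34.0% and 46.0% at PN21 and between 42.5% and 48.6% at PN98. The ages overlapped in both shares. *Timp2*, which besides its role as inhibitor helps to activate pro-MMP2 on the cell surface, was the highest of them, with 105, 60.6, 90.9 and 130 FPKM in the PN21 mice and 147, 96.1, 127 and 59.1 FPKM in the PN98 mice. *Timp3*, which stays bound to the matrix and also inhibits several ADAM and ADAMTS enzymes, had 47.7, 36.99, 44.1 and 49.004 FPKM in the PN21 mice and 61.8, 49.4, 49.9 and 36.8 FPKM in the PN98 mice. The ages overlapped in both genes. The fold change was 0.12 for *Timp2* (limma adjusted p = 0.830), and it was below 0 when m49 or m35 was left out. For *Timp3* it was 0.14 (limma adjusted p = 0.654), with a 95% interval from −0.30 to 0.57.

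*Timp1*, the inducible inhibitor, was lower at PN98. It lies at chrX:20870166-20874735 on the plus strand and had 6.35, 4.03, 5.46 and 8.25 FPKM in m1, m49, m138 and m145. In m35, m106, m114 and m125 it had 2.98, 0.898, 1.84 and 0.800 FPKM. Every PN98 mouse lay below every PN21 mouse, and m35 was the closest to them. The PN21 mean of 6.02 ± 1.77 FPKM (SD, n = 4) compared with 1.63 ± 1.01 FPKM (SD, n = 4) for PN98, which is 3.70-fold lower, and limma gave a log2 fold change of −1.46 with a standard error of 0.30 and an adjusted p of 0.0342. The call was kept without m35 and was lost when any other of the 8 mice was left out, with fold changes from −1.61 to −1.30, and when no minimum was set (adjusted p = 0.0536). *Timp1* lies inside the span of *Syn1*, a synaptic vesicle gene on the opposite strand, and shared no exon base with it. *Syn1* was between 0.0771 and 0.349 FPKM.

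*Timp4*, known from heart and fat, had values in the other direction. It had 32.8, 33.7, 25.8 and 88.9 FPKM at PN21 and 74.1, 62.9, 133 and 62.9 FPKM at PN98. PN21 mouse m145 lay above m35, m106 and m125, so the ages overlapped. The log2 fold change was 0.97 (SE 0.41), and *Timp4* was called neither here (limma adjusted p = 0.178) nor in the 15 alternatives (adjusted p from 0.0539 to 0.339). *Timp4* lies within *Syn2* on the opposite strand and shares 90 exon bases with it, and *Syn2* was between 2.19 and 5.76 FPKM. *Timp3* lies in the same way within *Syn3*, sharing 1733 exon bases, and *Syn3* was between 0.174 and 0.651 FPKM.

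Ratios within a mouse do not depend on the scaling of that mouse. *Timp4* over *Timp1* was 5.17, 8.36, 4.72 and 10.8 in m1, m49, m138 and m145, and 24.9, 70.1, 72.3 and 78.7 in m35, m106, m114 and m125. The ages were far apart in this ratio, with m35 again the PN98 mouse closest to PN21. The ratio is a description with no test, and *Timp1*, by which it divides, was itself called lower while *Timp4* was not called.

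**Figure D2:**
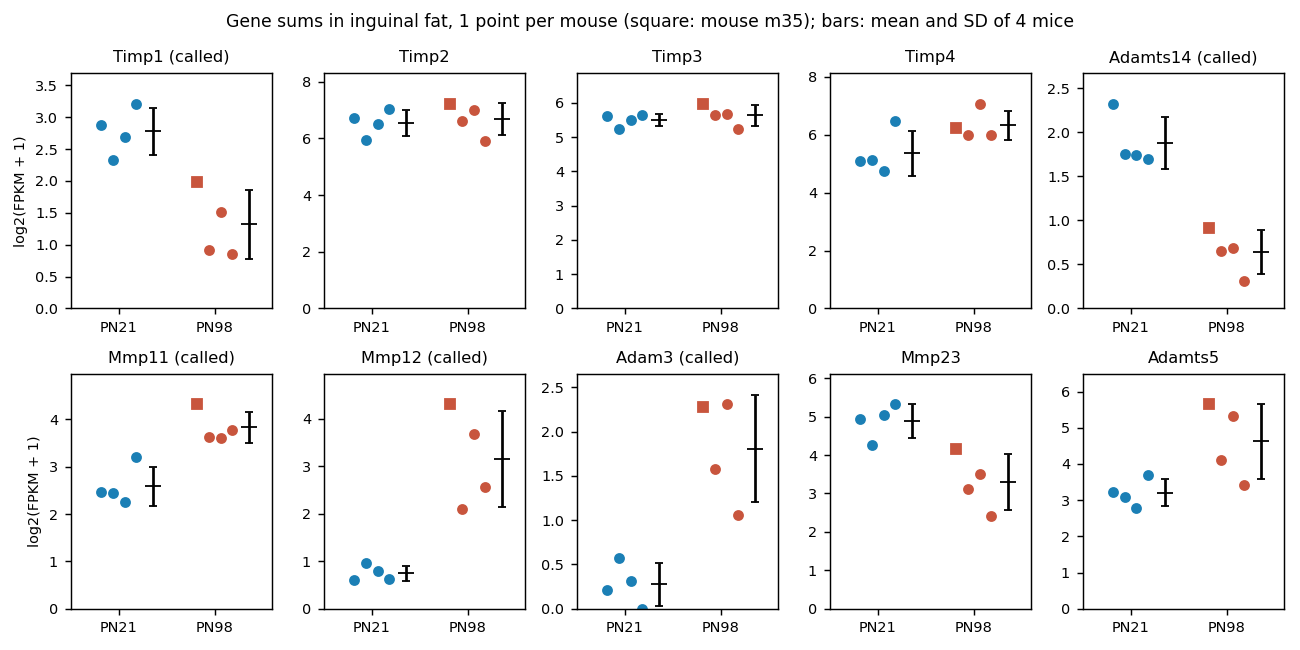
log2(FPKM + 1) on the y axis, from 0 upwards, for 10 genes in the 4 PN21 and 4 PN98 mice (x axis); points are mice, squares are mouse m35, and bars give the mean and SD of 4 mice. The ages do not overlap for Timp1, Adamts14, Mmp11, Mmp12, Adam3 and Mmp23, and they overlap for Timp2, Timp3, Timp4 and Adamts5.

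Gelatinases cut denatured collagen and the collagen of basement membranes. *Mmp2*, the constitutive gelatinase of stromal cells, had 48.3, 24.8, 35.9 and 52.5 FPKM at PN21 and 51.0, 35.1, 42.5 and 20.7 FPKM at PN98. The ages overlapped, and the fold change of −0.12 (limma adjusted p = 0.825, 95% interval −0.88 to 0.63) was positive after both scalings, at 0.10 and 0.14. *Mmp9*, the gelatinase of leukocytes, had between 2.23 and 7.31 FPKM at PN21 and between 3.03 and 10.6 at PN98, with a fold change of 0.14 (limma adjusted p = 0.843, 95% interval −0.79 to 1.06).

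The collagenases proper, which open the intact triple helix of fibrillar collagen, were low or listed at 0. *Mmp1a* and *Mmp1b* were listed at 0 in all mice, and *Mmp13* was at most 0.250 FPKM. *Mmp8*, the collagenase of neutrophils, had 0.579, 0.323, 0.687 and 0.474 FPKM at PN21 and 0.0912, 0.00785, 0.0172 and 0.0263 FPKM at PN98. The ages were apart, but the gene lay below the minimum. Without a minimum it was called lower (log2 fold change −0.54, adjusted p = 0.0211 by limma over 27440 genes). Neutrophil genes moved the same way: of 6 listed, 5 were found, they summed to between 58.4 and 129 FPKM at PN21 and between 3.04 and 8.28 at PN98, and 4 of the 5 were called lower. *S100a9*, a neutrophil calcium-binding protein, ran from 46.5 to 105 FPKM at PN21 and from 1.82 to 6.15 at PN98. Their part in the *Mmp8* values was not tested.

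Stromelysins have a broad range of matrix substrates. *Mmp3*, stromelysin-1, which also activates other pro-MMPs, had 12.8, 7.84, 9.53 and 22.2 FPKM at PN21 and 19.5, 12.7, 24.1 and 8.16 FPKM at PN98, with a fold change of 0.28 (limma adjusted p = 0.664). The ages overlapped fully. *Mmp10* and *Mmp7* were below the minimum, at no more than 1.41 and 0.539 FPKM.

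*Mmp11*, stromelysin-3, which is activated inside the cell by furin and is weak against most matrix proteins, was higher at PN98. It lies at chr10:75923222-75936496 on the minus strand. It had 4.51, 4.42, 3.80 and 8.17 FPKM in the PN21 mice and 19.0, 11.5, 11.2 and 12.6 FPKM in the PN98 mice, so that the lowest PN98 mouse exceeded the highest PN21 mouse. The PN21 mean of 5.23 ± 1.99 FPKM (SD, n = 4) compared with 13.6 ± 3.68 FPKM (SD, n = 4) for PN98, a ratio of 2.60, and limma gave a log2 fold change of 1.24 with a standard error of 0.26 and an adjusted p of 0.0335. The call was kept without m145 or m35 and lost without any other mouse. A short transcript of 335 bases (Mmp11-203, annotated as subject to nonsense-mediated decay) held 55.4% of the gene's FPKM over the 8 mice. The full coding transcript Mmp11-201 had 1.44, 1.31, 1.99 and 1.31 FPKM at PN21 and 5.49, 3.90, 3.83 and 2.65 at PN98, which did not overlap either, with an adjusted p of 0.0616 in the limma fit across transcripts. Over protein coding transcripts alone the fold change of the gene was 1.14 (limma adjusted p = 0.0372).

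*Mmp12*, macrophage elastase, had the largest fold change of the 37 genes. It lies at chr9:7344381-7369499 on the plus strand. At PN21 it was below 1 FPKM in every mouse, with 0.515, 0.936, 0.724 and 0.551 FPKM, and at PN98 it had 18.8, 3.27, 11.7 and 4.94 FPKM. The PN98 mice spread widely and none came near the PN21 mice. The PN21 mean of 0.681 ± 0.192 FPKM (SD, n = 4) compared with 9.68 ± 7.08 FPKM (SD, n = 4) for PN98, a ratio of 14.2, and limma gave a log2 fold change of 2.42 with a standard error of 0.45 and an adjusted p of 0.0254. Without m35, which had the highest value, it was 2.04 and remained called (adjusted p = 0.0123). The call was lost without m1, m49, m138, m145 or m114.

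The transcripts of *Mmp12* began at both starts shown above. The coding transcript Mmp12-201, from the downstream start, was listed at 0 in all 8 mice. Mmp12-203, a coding transcript from the upstream start, had at most 0.579 FPKM at PN21 and 6.39, 0.856, 3.19 and 1.06 FPKM at PN98. Mmp12-204, which starts just after the downstream start and is annotated as subject to nonsense-mediated decay, had at most 0.687 FPKM at PN21 and 6.05, 1.80, 4.92 and 1.38 FPKM at PN98. Both were highest in m35 and m114. How the reads were divided among these overlapping transcripts is an estimate. The last part of *Mmp12* shares 157 exon bases with *Mmp1b* on the opposite strand, which was listed at 0.

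Macrophage genes were measured beside *Mmp12*. The 6 listed summed to between 72.0 and 111 FPKM at PN21 and to 137.5, 85.6, 112 and 42.0 FPKM in m35, m106, m114 and m125. None of the 6 was called by limma and none had an unadjusted p below 0.05. *Adgre1*, which encodes F4/80, had between 6.59 and 8.69 FPKM at PN21 and between 2.99 and 10.4 at PN98. *Itgax*, expressed in inflammatory macrophages and dendritic cells, had between 1.48 and 3.40 FPKM at PN21 and 6.06, 1.32, 2.42 and 0.856 FPKM in the PN98 mice. *Mmp12* was highest in m35, as were *Itgax*, *Cd68* and *Csf1r* of the list, whereas *Adgre1* and *Cd163* were highest in m114 and *Mrc1* in PN21 mouse m1. In m106 and m125 *Itgax* lay below every PN21 mouse, and *Mmp12* lay above them. The part of macrophage number in the *Mmp12* values was not tested.

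*Mmp12* belongs to a row of 10 *Mmp* genes at chr9:7272514-7699585. In this row 3 genes reached the minimum (*Mmp12*, *Mmp3* and *Mmp27*), 1 of them was called, and 7 were below it. All 10 have a promoter entry and 8 hold the AP-1 motif. *Mmp3* holds it 46 bases upstream of its start, close to where *Mmp12* holds it, and was not called. Levels differed widely among neighbours with these letters, as *Mmp20*, an enzyme of tooth enamel, was at most 0.0190 FPKM and *Mmp3* reached 24.1 FPKM.

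Of the other MMPs, *Mmp23*, a small membrane-linked enzyme without the usual cysteine switch, had 29.5, 18.3, 31.9 and 39.0 FPKM at PN21 and 16.9, 7.75, 10.3 and 4.31 FPKM at PN98. No PN98 mouse reached the lowest PN21 mouse, m49, although m35 came close. The log2 fold change of −1.59 (SE 0.38) had a limma adjusted p of 0.0536 and was not called. It was called without m35 (−1.88, adjusted p = 0.0128) and in 4 other alternatives. *Mmp19* had between 11.1 and 19.8 FPKM at PN21 and between 8.48 and 15.3 at PN98, and *Mmp28* had between 7.55 and 14.0 and between 9.19 and 14.9. Neither was called (limma adjusted p = 0.366 and 0.563). Both share exon bases with a gene on the opposite strand, 23.2% of them with *Tmem198b* for *Mmp19* and 12.03% with *1700020L24Rik* for *Mmp28*.

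Membrane-anchored MMPs act at the cell surface. *Mmp14*, MT1-MMP, which cuts collagen around cells and activates pro-MMP2, had 49.1, 28.5, 45.6 and 46.9 FPKM at PN21 and 40.0, 24.5, 22.8 and 15.7 FPKM at PN98. PN21 mouse m49 was low and PN98 mouse m35 was high, and they made the ages overlap. The log2 fold change was −0.75 (SE 0.30, limma adjusted p = 0.160), and without m35 it was −0.98 (adjusted p = 0.0332). *Mmp15*, MT2-MMP, had 11.7, 6.02, 8.38 and 7.81 FPKM at PN21 and 5.27, 4.07, 5.26 and 3.70 FPKM at PN98. Its ages did not overlap, and it was not called (limma adjusted p = 0.0833; without m35, 0.0447). The other 4 membrane-anchored MMPs were below the minimum.

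Within a mouse, *Mmp14* over *Timp2* was 0.467, 0.470, 0.502 and 0.361 at PN21 and 0.271, 0.255, 0.180 and 0.265 at PN98. The ages did not overlap in this ratio, and m35 was the highest of the PN98 mice. *Mmp2* over *Timp2* was between 0.395 and 0.459 at PN21 and between 0.335 and 0.366 at PN98. For all *Mmp* over all *Timp* genes the ratio was between 0.759 and 1.03 at PN21 and between 0.523 and 0.690 at PN98. With protein coding transcripts alone it was between 0.663 and 0.938 and between 0.475 and 0.596. All these ratios were lower at PN98 without overlap, and they are descriptions with no test.

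**Figure D3:**
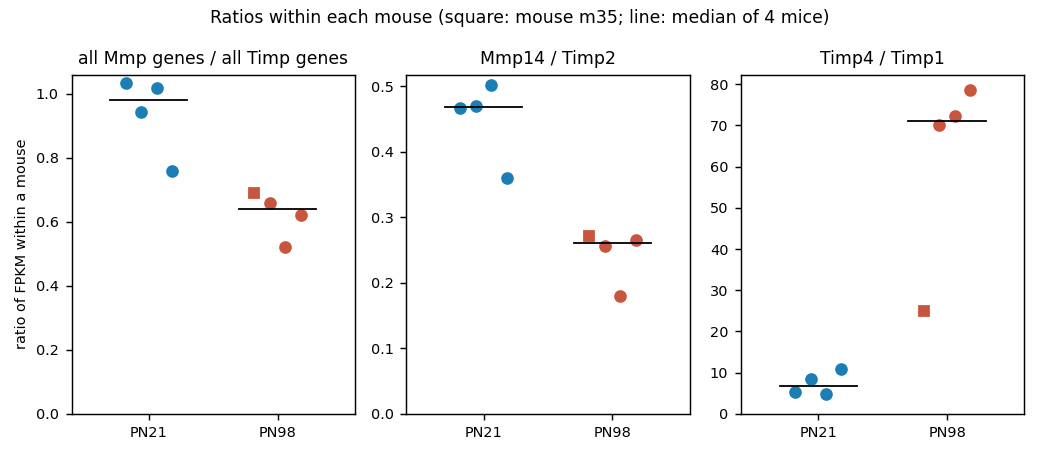
Ratio of FPKM within a mouse (y axis, from 0) at PN21 and PN98 (x axis) for all Mmp over all Timp genes, Mmp14 over Timp2 and Timp4 over Timp1; points are mice, squares are m35 and lines are medians of 4 mice. The ages do not overlap in any of the 3 ratios, with PN98 lower in the first pair and higher in Timp4 over Timp1.

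Procollagen N-propeptidases cut the amino-terminal propeptide from new fibrillar collagen. *Adamts2*, the main enzyme of this kind, had 17.5, 8.99, 12.3 and 16.8 FPKM at PN21 and 18.01, 11.7, 26.5 and 6.29 FPKM at PN98. The ages overlapped, and the fold change was 0.04 (limma adjusted p = 0.962) with a sign that turned in 5 of 15 alternatives. *Adamts3* was at most 0.0682 FPKM.

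*Adamts14*, the remaining enzyme of this kind, had the lowest p of the 37 genes. It lies at chr10:61197112-61273438 on the minus strand. It had 3.99, 2.36, 2.33 and 2.24 FPKM at PN21 and 0.885, 0.567, 0.605 and 0.238 FPKM at PN98. All PN98 mice lay below 1 FPKM and all PN21 mice above 2 FPKM. The PN21 mean of 2.73 ± 0.843 FPKM (SD, n = 4) compared with 0.574 ± 0.265 FPKM (SD, n = 4) for PN98, which is 4.76-fold lower, and limma gave a log2 fold change of −1.24 with a standard error of 0.20 and an adjusted p of 0.0173. The call was kept in 13 of 15 alternatives and lost without m106 or m114. The coding transcript Adamts14-201 held 99.8% of the sum, and its fold change on the log2(FPKM) scale was −2.35 (adjusted p = 0.0517 in the limma fit across transcripts).

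The 5 genes whose values were most like those of *Adamts14*, by Pearson r of log2(FPKM + 1) over the 8 mice, were *Tnfaip6* (0.994), *Polr3d* (0.985), *Cdca3* (0.985), *Gm6211* (0.985) and *Kif20a* (0.984). The 8 points share the split by age, and all 5 genes were themselves called lower at PN98. *Tnfaip6*, which encodes a hyaluronan-binding protein, had 8.49, 4.20, 3.75 and 4.34 FPKM at PN21 and 1.06, 0.973, 0.847 and 0.373 FPKM at PN98. *Cdca3* and *Kif20a* are genes of dividing cells. Among 6 listed genes of cycling cells, 5 were tested and 4 were called lower, and the 6 summed to between 43.3 and 73.7 FPKM at PN21 and between 3.84 and 17.4 FPKM at PN98. Their part in the *Adamts14* values was not tested.

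Some ADAMTS enzymes cut versican, aggrecan and related proteoglycans. *Adamts5*, the main aggrecanase of mice, had 8.39, 7.56, 5.94 and 11.9 FPKM at PN21 and 49.2, 16.4, 38.9 and 9.60 FPKM at PN98. Mouse m125 lay below m145, and the other PN98 mice lay above all PN21 mice. The PN98 mean was 3.38 times the PN21 mean, but the spread was wide, and the log2 fold change of 1.42 (SE 0.49) was not called (limma adjusted p = 0.123). *Adamts15* had between 2.94 and 6.22 FPKM at PN21 and between 0.714 and 2.58 at PN98, without overlap, and it was not called either (limma adjusted p = 0.102). *Adamts1* had between 4.93 and 10.6 FPKM at PN21 and between 2.96 and 12.8 at PN98, and its fold change of −0.17 (limma adjusted p = 0.798) was above 0 after both scalings. *Adamts9* had between 5.69 and 9.16 FPKM at PN21 and between 3.13 and 6.31 at PN98 (limma adjusted p = 0.241).

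Among the other ADAMTS genes, *Adamts10*, which takes part in the assembly of fibrillin microfibrils, had 19.8, 18.6, 25.5 and 20.8 FPKM at PN21. At PN98 it had 20.7 FPKM in m35 and 6.92, 8.79 and 6.33 FPKM in m106, m114 and m125. The overlap rested on m35 alone. With all mice the log2 fold change was −1.06 (limma adjusted p = 0.104), and without m35 it was −1.41 (adjusted p = 0.00571). *Adamts7*, which cuts cartilage oligomeric matrix protein, had between 3.58 and 6.54 FPKM at PN21, 5.04 in m35 and between 0.735 and 2.65 in the other PN98 mice. Its fold change was −0.93 (limma adjusted p = 0.171), and it too was called without m35 (−1.24, adjusted p = 0.0303). Protein coding transcripts held 28.0% of its FPKM, and over these alone its fold change was −0.54 (limma adjusted p = 0.235). *Adamts12* had between 2.45 and 7.29 FPKM at PN21 and between 1.97 and 4.76 at PN98 (limma adjusted p = 0.272). *Adamts19* was below the minimum, at most 0.483 FPKM, and without a minimum it was called lower (−0.43, adjusted p = 0.0231).

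Among the ADAM sheddases *Adam15*, a widely expressed member, led all 79 genes by the summed level. It had 148, 95.4, 101 and 213 FPKM at PN21 and 178, 124, 204 and 107 FPKM at PN98, and was not called (log2 fold change 0.16, limma adjusted p = 0.755). Of this sum 52.6% came from Adam15-212, a transcript of 418 bases without a coding annotation. Over protein coding transcripts alone *Adam15* had between 19.1 and 34.2 FPKM at PN21 and between 22.0 and 45.1 at PN98 and ranked 6, behind *Timp2*, *Timp4*, *Timp3*, *Mmp2* and *Mmp14*. *Adam9*, also widely expressed, had 21.1, 19.5, 20.1 and 15.6 FPKM at PN21 and 27.9, 26.7, 32.5 and 19.7 FPKM at PN98. Mouse m125 overlapped with PN21, and *Adam9* was called after median of ratios scaling (0.67, adjusted p = 0.0428) but not as deposited (0.45, limma adjusted p = 0.172). *Adam10*, the alpha-secretase that also acts on Notch receptors, had between 12.2 and 20.1 FPKM at PN21 and between 7.68 and 17.96 at PN98 (limma adjusted p = 0.509).

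*Adam12*, known from mesenchymal precursor cells, had 15.8, 17.97, 14.0 and 8.27 FPKM at PN21 and 2.94, 8.19, 6.61 and 3.86 FPKM at PN98. The ages did not overlap, but m145 and m106 were almost equal, and m35 was the lowest PN98 mouse, unlike in many of the genes above. The log2 fold change was −1.26 (SE 0.33, limma adjusted p = 0.0664), and it was called in 2 of 15 alternatives. *Adam19*, whose known substrates include neuregulins, had 11.4, 10.1, 14.8 and 6.66 FPKM at PN21 and 7.07, 3.05, 4.47 and 1.02 FPKM at PN98 (log2 fold change −1.38, limma adjusted p = 0.0951; without m35 −1.68 and 0.0237). *Adam33* had between 11.5 and 18.4 FPKM at PN21 and between 4.49 and 10.4 at PN98, without overlap (limma adjusted p = 0.104).

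*Adam8*, a leukocyte ADAM, had between 5.42 and 13.4 FPKM at PN21, 11.7 in m35 and between 2.25 and 3.05 in the other PN98 mice. Mouse m35 thus lay inside the PN21 range, as it did for the summed lymphocyte genes and for *Mmp14*, *Adamts7* and *Adamts10*. The part of leukocytes in the *Adam8* values was not tested. *Adam17*, the enzyme that releases tumour necrosis factor, had between 6.43 and 14.2 FPKM at PN21 and 11.1, 11.2, 6.47 and 0.124 FPKM at PN98 (limma adjusted p = 0.474). Its coding transcript Adam17-201 was listed at 0.00363 FPKM in m145, 0.00546 in m114 and 0.00324 in m125 and at 10.2 in m1. None of the 8 tested sheddases was called by limma, and at an unadjusted p below 0.05 there were 1 higher and 3 lower, where 8.18% of all genes were higher and 19.0% lower. *Adam8*, *Adam19* and *Adam33* were called lower without m35 and with array weights, where the shares of all genes called lower were 17.7% and 21.6%.

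ADAMs without protease activity act in adhesion and at synapses. *Adam23* had between 5.87 and 8.74 FPKM at PN21 and between 6.58 and 9.01 at PN98, and the 95% interval of its fold change of 0.05 ran from −0.33 to 0.42. *Adam11* had 13.8, 10.2, 11.9 and 3.66 FPKM at PN21 and 9.38, 2.47, 1.53 and 1.24 FPKM at PN98. The low PN21 mouse was m145 and the high PN98 mouse was m35. *Adam11* was not called with all mice (−1.40, limma adjusted p = 0.155) and was called without m35 (−1.89, adjusted p = 0.0208) and over coding transcripts alone (−1.76, adjusted p = 0.0210).

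ADAMs known mainly from germ cells were mostly low: of 21 such or ungrouped genes, 9 were listed at 0 in all mice and 2 reached the minimum, *Adam1a* and *Adam3*. *Adam3*, a sperm protein, was called higher. It lies at chr8:24677225-24725852 on the minus strand and had 0.157, 0.493, 0.238 and 0 FPKM at PN21 and 3.87, 1.98, 3.96 and 1.08 FPKM at PN98, without overlap. The log2 fold change was 1.53 (SE 0.30, limma adjusted p = 0.0287), and the call was kept without m35 or m125 and lost without any other mouse. Of the sum, 53.1% came from Adam3-203, a transcript of 249 bases that was listed at 0 in all PN21 mice and in m125, and 23.0% from Adam3-202, a non-coding transcript of 453 bases. The coding transcript Adam3-209, of 2501 bases, was at most 0.439 FPKM. Over coding transcripts alone *Adam3* had at most 0.157 FPKM at PN21 and 1.51, 1.89, 3.73 and 0.000321 FPKM in m35, m106, m114 and m125, so that the ages overlapped through m125. The mean was then under 1 FPKM and the gene was not tested, and the separation of the ages in m125 rested on transcripts not annotated as protein coding.

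**Figure D4:**
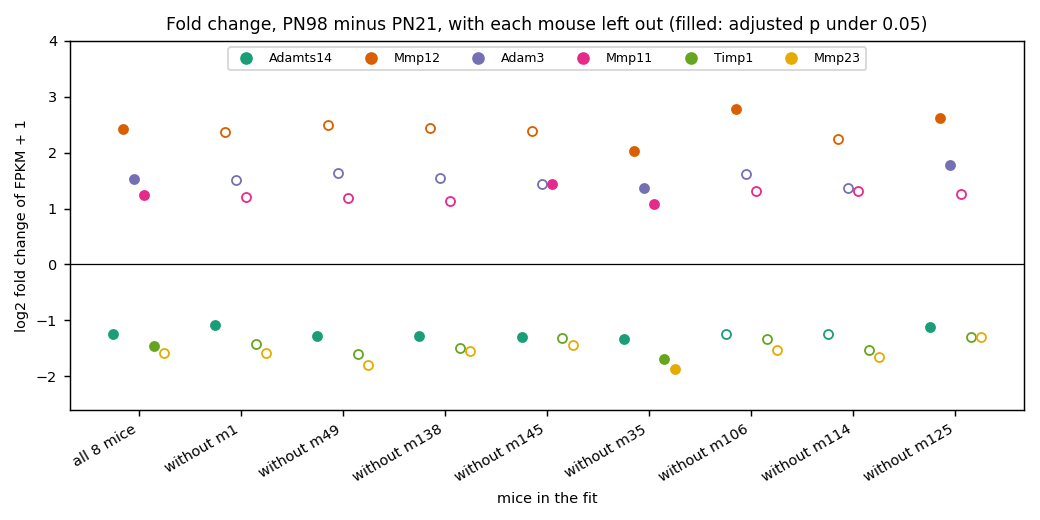
Log2 fold change of FPKM + 1 (y axis) of Adamts14, Mmp12, Adam3, Mmp11, Timp1 and Mmp23 in the fit with all 8 mice and with each mouse left out (x axis); filled points have an adjusted p below 0.05. The estimates of the 6 genes keep their sign in all these fits, most calls are lost in several of them, and without m35 all 6 genes are called.

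At the level of single transcripts, 51 transcripts of 32 of these genes passed the filter used by the study (above 0 in all mice and a mean above 2 FPKM at either age). None reached an adjusted p below 0.05 in the limma fit over 23105 transcripts, where 1.19% were called, 0.632% higher and 0.554% lower. At an unadjusted p below 0.05 there were 19, 5 higher and 14 lower, against 21.6% of all transcripts. The next lowest adjusted p after those of Adamts14-201 and Mmp11-201 was that of Mmp12-204 (0.0739). With a pseudocount of 1, 3 transcripts were called, of *Adamts14*, *Mmp23* and *Adam11*, where 2.97% of all transcripts were, and without m35, 6 were, beside 7.39% of all. Array weights gave 7 (6.58% of all), median of ratios scaling 3 (2.29% of all) and nuclear scaling 2 (1.40% of all).

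Genes that work with these enzymes were read from a list of 105 in 7 groups, of which 86 were tested, 2 called higher and 13 lower, against 2.33% and 2.89% of all genes. The 15 calls became between 3 (without m106) and 33 (without m35) when 1 mouse was left out. In the same fits 188 of 16119 and 3508 of 15966 genes of the whole table were called. The collagens had the largest differences. Of 13 fibrillar and network collagens tested, 3 were called lower and 12 had a fold change below 0, as 67.0% of all genes did, with a group median of −1.47 beside −0.21 for all genes. *Col1a1*, a chain of type I collagen, had between 356 and 1125 FPKM at PN21 and between 35.1 and 146 at PN98 (log2 fold change −3.03, limma adjusted p = 0.0186). *Col1a2*, the other chain of type I collagen, had a fold change of −2.61 and *Col3a1*, the chain of type III collagen, one of −2.70 (limma adjusted p = 0.0185 and 0.0268).

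Of 13 genes of collagen processing and crosslinking, 5 were called lower and the group median was −1.07. *P4ha2*, a prolyl hydroxylase subunit, had between 18.5 and 25.3 FPKM at PN21 and between 6.36 and 10.7 at PN98. *Loxl2*, a crosslinking enzyme, had between 31.8 and 53.6 and between 7.60 and 18.7 FPKM. *Pcolce*, an enhancer of C-propeptide removal, had between 237 and 465 and between 35.8 and 139 FPKM. *Adamts14* was called in the direction of these collagen genes, and *Adamts2* was not called.

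Of 18 tested matrix proteins that these enzymes can cut, 4 were called lower. *Vcan*, versican, a substrate of *Adamts5* and its relatives, had 27.0, 19.3, 19.6 and 23.1 FPKM at PN21 and 6.38, 4.81, 7.31 and 2.98 FPKM at PN98 (log2 fold change −1.91, limma adjusted p = 0.00778). *Eln*, elastin, which *Mmp12* can cut, had between 61.9 and 170 FPKM at PN21 and between 9.16 and 36.4 at PN98 (−2.40, limma adjusted p = 0.0271). *Fbn2*, a fibrillin, had between 1.76 and 3.48 FPKM at PN21 and at most 0.0374 FPKM at PN98 (−1.85, limma adjusted p = 0.00266). Among 15 shed membrane proteins 1 was called, *Dlk1* (Pref-1, the preadipocyte protein that ADAM17 releases), which had 14.8, 25.4, 7.61 and 12.7 FPKM at PN21 and 1.09, 0.807, 1.67 and 0.532 FPKM at PN98 (−2.91, limma adjusted p = 0.00570).

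Of 16 other inhibitors and regulators, 2 were called higher. *Pcsk6*, a proprotein convertase, had 12.4, 9.73, 8.49 and 13.5 FPKM at PN21 and 26.4, 21.0, 36.0 and 22.0 FPKM at PN98 (log2 fold change 1.18, limma adjusted p = 0.0261). *Tspan5*, a tetraspanin that guides ADAM10, had between 3.74 and 5.13 FPKM at PN21 and between 7.93 and 10.7 at PN98 (0.87, limma adjusted p = 0.0224). None of 6 tested genes of the plasminogen system and none of 5 ADAMTS-like genes was called by limma, with 2 higher and 1 lower, in that order, at an unadjusted p below 0.05, where 8.18% of all genes were higher and 19.0% lower. Stromal progenitor genes (7 listed) summed to between 449 and 696 FPKM at PN21 and between 251 and 645 at PN98, and none of the 7 was called by limma, with 1 lower at an unadjusted p below 0.05. Their part in the collagen and *Timp1* values was not tested.

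**Figure D5:**
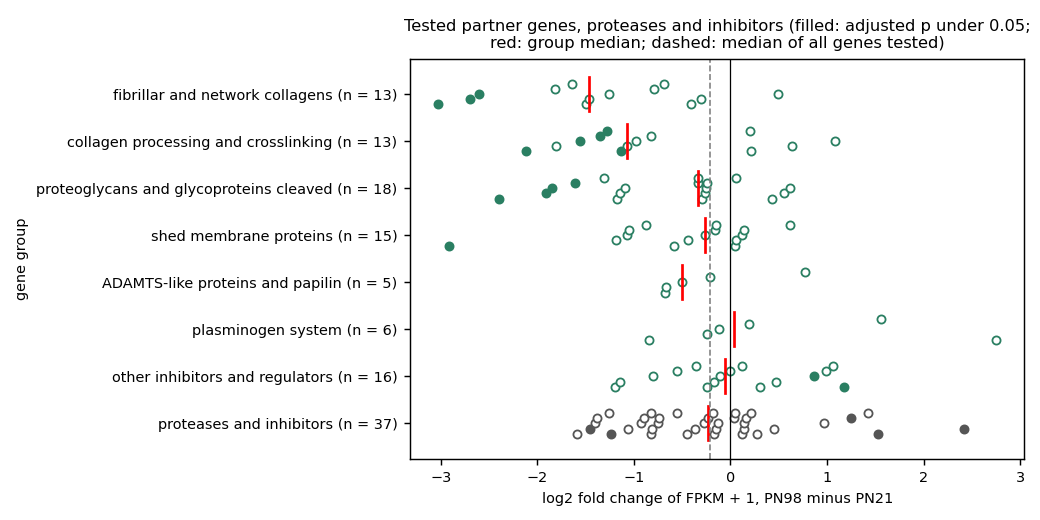
Log2 fold change of FPKM + 1 (x axis, PN98 minus PN21) of single genes in 7 groups of partner genes and of the 37 tested proteases and inhibitors (y axis); filled points have an adjusted p below 0.05, red lines are group medians and the dashed line is the median of all genes tested. Collagens and collagen-processing genes have the lowest group medians, −1.47 and −1.07, and the 37 genes have a median of −0.24.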

How the data were processed

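Libraries were made from poly(A)+ RNA with a directional kit and sequenced in paired ends. Per the labels and the study's methods, the authors used CASAVA 1.8.2, FastQC, STAR 2.3.0 (mm10) and Cufflinks 2.1.1 and deposited FPKM per transcript, with a mean, an SD and a score (the log10 ratio of mean and SD, each plus 1). Values other than those of the 8 mice entered this mean, since 1062 transcripts listed at 0 in all 8 mice have a deposited mean above 0. Most deposited values of 1 and above had lost their decimal mark. Marks were restored from the mean, SD and score for 40347 of 40441 transcripts, and 94 with several readings were left out. In a second deposited table with intact marks, 4988 of 4988 restored transcripts were equal in all 8 mice. That table's p-values and fold changes of the authors' own contrast were not used. FPKM keep no read counts, so depth is unknown and no interval for counting error is given.

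FPKM were summed per gene through GENCODE M21 (GRCm38). limma 3.58.1 in R 4.3.3 (lmFit, eBayes) compared 4 PN98 with 4 PN21 mice, each a separate animal, on log2(FPKM + 1) for genes with a mean of at least 1 FPKM, and on log2(FPKM) for transcripts above 0 in all mice with a mean above 2 FPKM at either age. The fit was tested on simulated data, with normal values drawn independently for each gene and the same spread at both ages. These data held no mouse that departed from its group, so they say nothing about the influence of m35. Named were all TIMPs, all called genes, the 3 highest tested genes of each role, the 8 largest fold changes, and per partner group at most 3 called genes, with *Dlk1*; other genes were named after their values were seen. The genes and lists were chosen with earlier results of these data known. Alternatives were a pseudocount of 0.1 (transcripts, 1), no minimum (transcripts, 0.5 FPKM), median of ratios scaling, scaling to nuclear genes, array weights, a trended robust eBayes, each mouse left out and, chosen after seeing the data, protein coding transcripts alone.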

Additional observations from a re-analysis of the deposited data

Results flagged for a closer look

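Among 60 groups of 4 mice (30 named genes at both ages), Dixon's ratio on the log2(FPKM + 1) scale passed its 95% critical value for 4 samples in 2, and chance flags about 1 in 20 such groups. PN21 mouse m49 had 28.5 FPKM of *Mmp14*, below the other PN21 mice at 45.6 to 49.1 FPKM (ratio 0.865). PN21 mouse m1 had 3.99 FPKM of *Adamts14*, above the others at 2.24 to 2.36 FPKM (ratio 0.912). *Adamts14* remained called without m1, with a log2 fold change of −1.09.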

How the results depend on the processing

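No paired analysis was made because the mice of both ages were separate animals and the labels name no pairs. Leaving out each mouse moved the number of called proteases and inhibitors from 5 to between 0 and 15 (15 without m35, 0 without m114). Called partner genes moved from 15 to between 3 and 33, and single transcripts of the proteases and inhibitors from 0 to between 0 and 6. The whole table moved too, from 838 of 16075 genes called to 3508 of 15966 without m35. It had 287 of 16122 called without m114 and 188 of 16119 without m106. Array weights gave 17 called genes and 42 of 86 partner genes, where 28.7% of all genes were called, and 7 transcripts. Transcripts also came to 3 with a pseudocount of 1, 3 after median of ratios scaling, and 2 when mice were scaled to nuclear genes. The median fold change of the 37 genes stayed between −0.38 and −0.06 as mice were left out. The 5 called genes kept their direction wherever they were tested. Of uncalled genes, *Mmp2* turned to 0.10 and 0.14 and *Adamts1* to 0.023 and 0.059 after median of ratios and nuclear scaling, and *Adamts2* turned to −0.075 with array weights. With each mouse left out, *Timp2* ran from −0.081 to 0.38, *Mmp2* from −0.33 to 0.12, *Mmp9* from −0.15 to 0.35, *Adamts2* from −0.26 to 0.38, *Adamts1* from −0.45 to 0.15 and *Adam23* from −0.039 to 0.13. The causes were not tested. Depth is unknown from FPKM, and genes below the minimum carry no test.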
